A study of Homo sapiens with 8 samples.

Results

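The collagen genes are the 44 protein-coding genes of the annotation whose symbols name a collagen chain, of 60106 genes in all and 20298 protein-coding ones. They were chosen by symbol and not by level. By their chains they fall into 11 fibrillar collagens, 10 fibril-associated collagens, 9 basement membrane collagens, 4 membrane-spanning collagens and 10 collagens of beaded filaments, networks and other kinds.

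RNA was sequenced from pneumospheres, spheres that lung cancer cells form when they cannot attach. There were 8 libraries from 4 established non-small cell lung cancer lines, of which H23, H820 and H1975 are labelled adenocarcinoma and EBC1 squamous cell carcinoma. Each line gave 1 library after PD-L1s, soluble PD-L1 (an immune checkpoint ligand) made synthetically and given at 25 µg/ml for 15 min without serum, and 1 untreated library. The labels do not say whether the libraries came from separate cultures, so p-values measure only the spread between these libraries, which may be technical.

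Collagens are secreted or membrane proteins whose chains wind into a helix of 3, either alike or different. Fibrillar collagens form the cables of connective tissue, fibril-associated collagens decorate them, and type IV collagens make the sheet under an epithelium. Stromal cells are the main source of fibrillar collagen in lung tissue, while epithelial cells make basement membrane and hemidesmosome collagens.

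Total counts were 15563010 after PD-L1s and 20310707 untreated in H23, 27524854 and 5894946 in EBC1, 22241208 and 23751862 in H1975, and 23783679 and 5559870 in H820. In EBC1 and H820 the untreated library was thus much the shallower of the pair. Levels are CPM, counts scaled by the TMM-adjusted library size, and a count of 0 allows up to 3 counts, which is 0.1205 to 0.5764 CPM by library. A pair of values for a line is its PD-L1s library and its untreated library. Epithelial markers summed to 145 and 146 CPM in H23, 4303 and 3585 in EBC1, 3778 and 3629 in H1975, and 2972 and 1878 in H820. H23 was low in the defining epithelial genes, with CDH1 at 1.66 and 2.01 CPM. In bulk RNA, fewer cells with a transcript and less transcript per cell cannot be told apart.

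Collagen transcripts were a small part of every library, and the lines differed in which collagens they held. The 44 genes took 0.107% of the counts after PD-L1s and 0.102% untreated in H23, with exact 95% binomial intervals of 0.105% to 0.108% and 0.1003% to 0.103%. EBC1 had the lowest shares, 0.0418% and 0.0384%. H820 had 0.0782% and 0.0806%, and H1975 had 0.125% and 0.126%. Within each line the 2 libraries were closer to each other than to those of any other line. Intervals and floors cover counting error only.

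**Figure D1:**
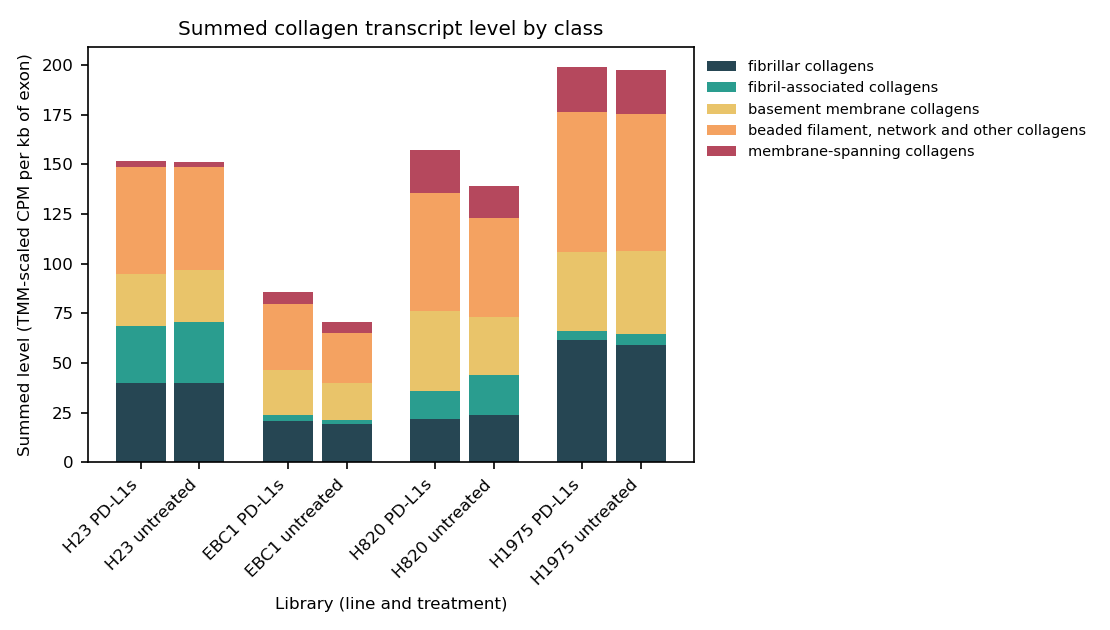
Summed level of the collagen genes per kb of exon (y axis, TMM-scaled CPM per kb) in each library (x axis), stacked by class, with PD-L1s left of untreated in each line. The H1975 bars are the tallest and the EBC1 bars, at 85.8 and 70.9 CPM per kb, the lowest.

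Per kb of exon, beaded filament, network and other collagens made up 34.2% to 38.5% of the collagen level in every library. The fibril-associated class varied widely. It held 18.9% of the level after PD-L1s and 20.3% untreated in H23, and 8.97% and 14.2% in H820, against 3.05% and 2.89% in EBC1 and 2.33% and 2.73% in H1975. Membrane-spanning collagens held 1.81% and 1.74% in H23, against 11.5% and 11.1% in H1975 and 13.6% and 11.7% in H820. COL6A1, a chain of the beaded filament collagen VI, had the highest level per kb in 7 of 8 libraries, and COL6A2, its partner chain, in the PD-L1s library of H23.

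Of the 44 genes, 25 reached 10 CPM in a library, 14 peaked between 1 and 10 CPM, and 5 stayed under 1 CPM in every library. The 14 were COL1A2, COL4A3, COL4A4, COL5A3, COL6A3, COL6A6, COL8A2, COL9A1, COL11A1, COL15A1, COL16A1, COL21A1, COL22A1 and COL23A1, and 10 of all 44 genes were at 1 CPM or more in each library. H23 had the broadest set, with 30 genes at 1 CPM or more in both libraries, against 19 in EBC1, 19 in H820 and 22 in H1975. The low-count filter kept 39 genes for testing and left out COL2A1, COL6A5, COL10A1, COL19A1 and COL25A1. A gene that passed it only through the line where it was high had to differ between lines, so the counts below are not independent support. All 39 tested collagens differed among the 4 lines at an adjusted p under 0.05, where 86.3% of all genes tested did.

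**Figure D2:**
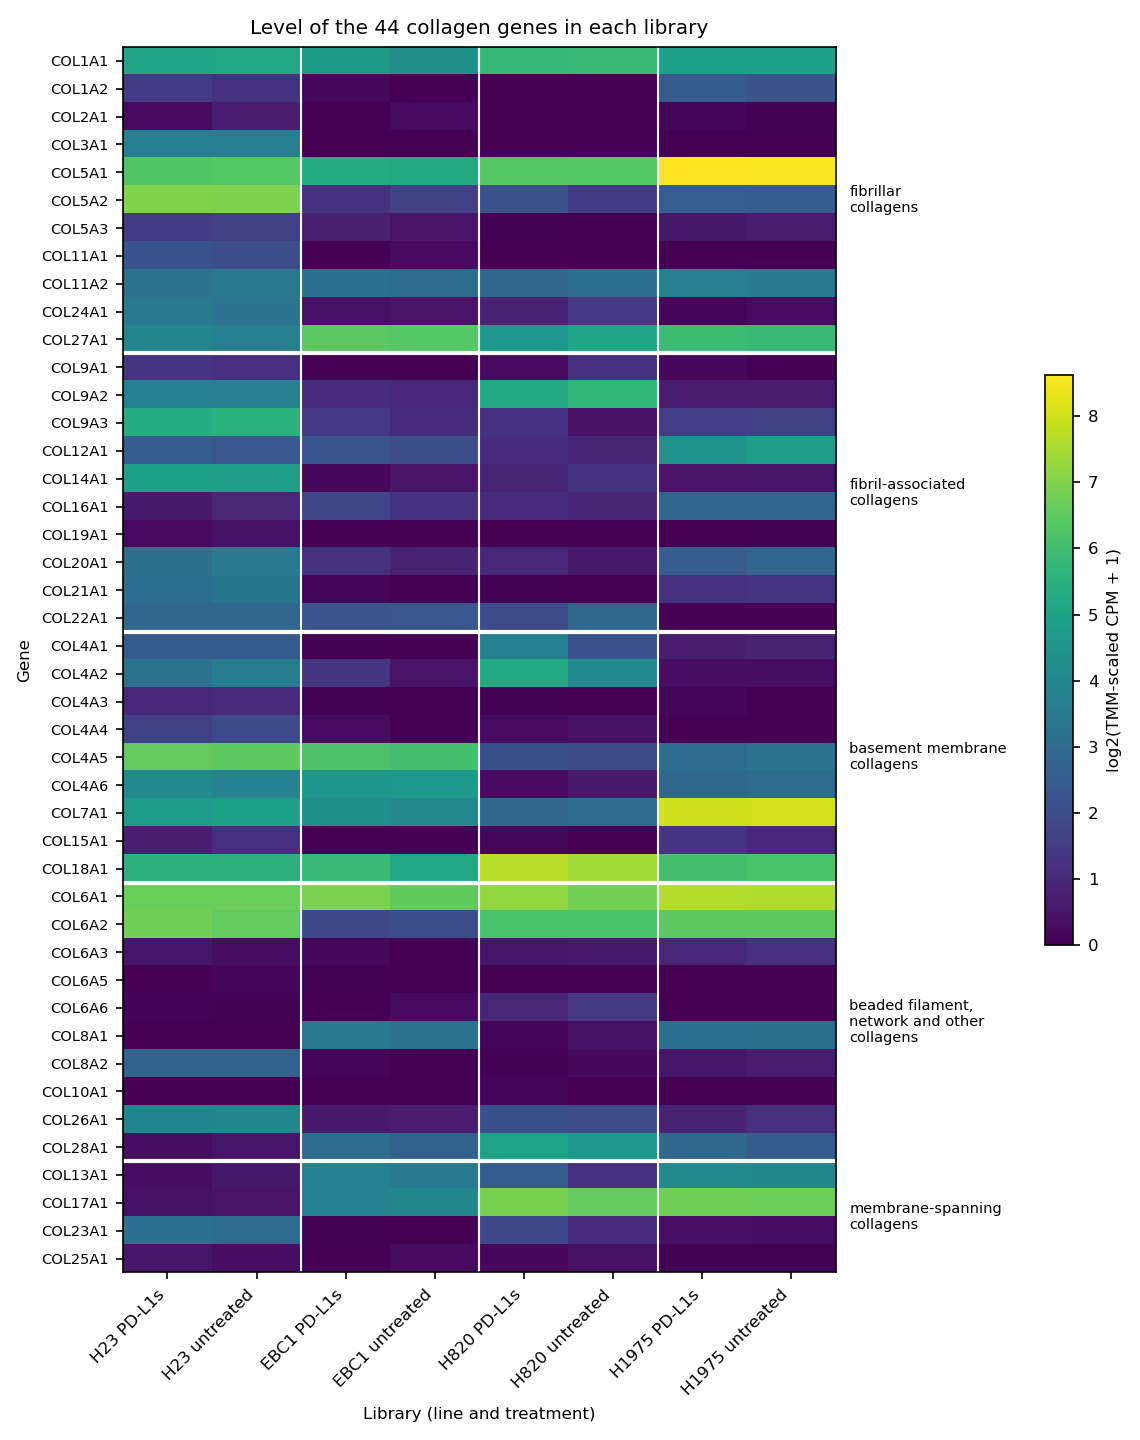
Level of each of the 44 collagen genes (rows, grouped by class) in the 8 libraries (columns, PD-L1s left of untreated in each line), as log2(TMM-scaled CPM + 1). The pair of libraries of a line look alike, while the lines differ; COL5A1 and COL7A1 are brightest in H1975 and COL5A2 in H23.

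H23 against the mean of the other 3 lines had 24 collagens higher, where 34.4% of all genes were higher, and 9 lower, where 27.4% were (61.8% in either direction). The median log2 difference over the 39 collagens was 2.42, beside 0.10 over all genes tested. By class, 6 of 10 fibrillar, 7 of 9 fibril-associated and 7 of 9 basement membrane collagens tested were higher. Higher than the mean of the other lines did not always mean highest. Of these genes, COL4A1, COL4A2 and COL9A2 had their highest mean level in H820, COL1A2 and COL15A1 in H1975, and COL4A6 in EBC1. The beaded filament, network and other class had 3 higher and 3 lower of 8 (median log2 -0.29), and the membrane-spanning class 1 higher and 2 lower of 3 (median -4.46).

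COL3A1, the chain of collagen III and a main product of fibroblasts (chr2:189839046-189877472 in GRCh37), was counted in H23 and in no other line. It had 12.2 CPM after PD-L1s and 11.96 CPM untreated in H23, and 0 counts in the 6 libraries of EBC1, H820 and H1975. With 3 counts allowed over those 6 libraries together, the pooled level of COL3A1 was at least 399-fold higher in H23.

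COL5A2, a chain of the fibril-nucleating collagen V (chr2:189896622-190044605), had 126 and 123 CPM in H23. In the other lines it had 1.39 and 2.11 CPM in EBC1, 4.998 and 4.54 in H1975, and 3.39 and 1.86 in H820. Both H23 libraries lay far above every other library. H23 exceeded the mean of the other lines by 5.49 ± 0.14 on the log2 scale (approximate SE, edgeR quasi-likelihood test, adjusted p = 9.75e-16). COL24A1, a fibrillar collagen of developing bone in mouse, had 10.4 and 8.75 CPM in H23 and at most 1.69 CPM in the other lines (log2 4.62 ± 0.28, adjusted p = 8.81e-11).

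Most fibril-associated collagens were higher in H23 as well. COL16A1 was called lower there (log2 -1.68 ± 0.35, adjusted p = 0.000393 by edgeR), and COL12A1 was not called (log2 -0.07 ± 0.21). COL14A1, which binds to the surface of fibrils, had 28.3 and 26.8 CPM in H23, against 0.134 and 0.384 in EBC1, 0.377 and 0.437 in H1975, and 0.836 and 1.35 in H820. The groups did not overlap, and H23 exceeded the rest by log2 6.001 ± 0.21 (adjusted p = 3.28e-14). COL9A3, a chain of the cartilage collagen IX, had 39.8 and 44.4 CPM in H23 and 0.339 to 2.14 CPM elsewhere (log2 4.78 ± 0.18, adjusted p = 8.16e-14). COL20A1 was less restricted, with 8.10 and 10.7 CPM in H23, 1.39 and 0.769 in EBC1, 4.57 and 5.98 in H1975, and 0.929 and 0.508 in H820.

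COL26A1 had 13.7 and 14.5 CPM in H23, against 0.538 and 0.576 in EBC1, 0.802 and 1.27 in H1975, and 3.30 and 3.05 in H820 (log2 3.497 ± 0.20, adjusted p = 3.25e-11). Among genes under 10 CPM, COL21A1 and COL23A1 reached 7.69 and 9.27 CPM and 7.89 and 7.39 CPM in H23, against at most 1.48 and 2.56 CPM in any other library. The membrane-spanning collagens COL17A1 and COL13A1 went the other way. COL17A1, a hemidesmosome protein that ties epithelial cells to the basement membrane, had 0.302 and 0.361 CPM in H23, against 13.1 and 14.4 in EBC1, 108 and 105 in H1975, and 116 and 93.5 in H820. Both H23 libraries lay below all others (log2 -7.28 ± 0.23, adjusted p = 1.4e-14). COL13A1 had 0.251 and 0.482 CPM in H23, against 12.8 and 10.95 in EBC1, 16.2 and 15.1 in H1975, and 4.60 and 1.35 in H820 (log2 -4.46 ± 0.36, adjusted p = 3.54e-09).

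Some fibroblast markers were higher in H23 and others were not. The 12 markers summed to 113 and 114 CPM in H23, 3.54 and 3.27 in EBC1, 7.07 and 6.16 in H1975, and 58.3 and 16.3 in H820. Of 7 markers tested, 5 were higher in H23 and 1 lower, with the background shares above. FBLN1 alone gave 104 and 106 CPM in H23, and 4 and 5 of the 12 had no count there. POSTN had 3.57 and 3.73 CPM in H23, THY1 had 1.46 and 1.65, and PDGFRA had 1.56 and 0.763. PDGFRA was higher in H820, at 2.28 and 1.69 CPM. PI16 was the marker called lower in H23, and PDGFRB was not called there. LUM, called higher in H23, and DCN, not tested, were each under 1 CPM in every library. Their part in the H23 collagen levels was not tested.

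EBC1 against the rest had 7 collagens higher, where 28.1% of all genes were higher, and 21 lower, where 26.4% were (54.4% in either direction). The median log2 difference was -1.44 over the collagens, beside -0.08 over all genes tested. Of the higher ones, COL4A5 and COL22A1 had their highest mean level in H23, COL13A1 in H1975 and COL28A1 in H820. Lower ones were spread over the classes: 4 of 10 fibrillar, 6 of 9 fibril-associated, 5 of 9 basement membrane and 5 of 8 beaded filament, network and other collagens.

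COL6A2, the partner of COL6A1 in collagen VI (chr21:47518011-47552763), had 2.56 and 3.07 CPM in EBC1, against 107 and 94.2 in H23, 88.9 and 89.3 in H1975, and 71.0 and 71.3 in H820. EBC1 lay below every other library (log2 -5.002 ± 0.19, adjusted p = 2.4e-13). COL6A1 lies near it (chr21:47401651-47424964). COL6A1 had 121 and 91.3 CPM in EBC1, 102 and 103 in H23, 199 and 194 in H1975, and 149 and 113 in H820. Per kb, COL6A1 stood at 49.3 and 30.8 times COL6A2 in EBC1, and at 0.985 to 2.32 times in the other lines. COL6A3, the chain that completes the usual collagen VI, had at most 28 counts in a library.

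Among the higher collagens of EBC1, COL27A1, a fibrillar collagen of cartilage, had 87.2 and 82.2 CPM in EBC1, against 14.5 and 12.2 in H23, 59.6 and 56.5 in H1975, and 23.4 and 33.4 in H820 (log2 1.61 ± 0.13, adjusted p = 6.99e-09). COL8A1, a network-forming chain, had 10.8 and 8.45 CPM in EBC1 and 7.92 and 8.16 in H1975, against 0.0929 and 0.339 in H820. H23 had no count of COL8A1 in either library. H23 held instead COL8A2, the other chain of collagen VIII, with 112 and 136 counts, against 13 or fewer in each other library.

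H1975 against the rest had 17 collagens higher, where 31% of all genes were, and 11 lower, where 22.6% were (53.6% in either direction). Of the higher ones, COL6A2, COL20A1 and COL21A1 had their highest mean level in H23, and COL4A6, COL8A1 and COL27A1 in EBC1. COL5A1, the partner of COL5A2 in collagen V, had 396 and 379 CPM in H1975, against 77.4 and 81.9 in H23, 39.3 and 36.7 in EBC1, and 80.1 and 82.0 in H820. Both H1975 libraries lay above all others (log2 2.63 ± 0.11, adjusted p = 6.82e-13). Per kb, COL5A1 stood at 64.4 and 67.9 times COL5A2 in H1975 and at 0.501 and 0.542 times in H23.

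COL7A1 (chr3:48601506-48632700) encodes the anchoring fibrils that fasten the basement membrane to the stroma. It had 255 and 266 CPM in H1975, against 25.8 and 28.1 in H23, 18.6 and 15.6 in EBC1, and 6.18 and 7.28 in H820. The H1975 level was higher by log2 4.16 ± 0.11 (adjusted p = 3.17e-15). Its exons share 36 bases with the microRNA gene MIR711 on the same strand, which had at most 196 counts in a library.

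COL12A1, a fibril-associated collagen, had 20.8 and 26.7 CPM in H1975, against 4.68 and 4.06 in H23, 3.81 and 3.07 in EBC1, and 1.21 and 0.847 in H820 (log2 3.19 ± 0.17, adjusted p = 1.89e-11). COL6A1 was higher in H1975 by a smaller amount, log2 0.81 ± 0.12 (adjusted p = 2.3e-05). COL22A1, by contrast, had no count in H1975 and 2.93 to 6.44 CPM in the other lines. COL11A2, a chain of the fibrillar collagen XI, varied little, with 12.2 and 11.1 CPM in H1975, 8.35 and 9.88 in H23, 7.89 and 7.30 in EBC1, and 6.23 and 7.62 in H820.

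H820 against the rest had 12 collagens higher, where 30.6% of all genes were, and 15 lower, where 22.9% were (53.5% in either direction). Of the higher ones, COL6A2, COL22A1, COL23A1 and COL26A1 had their highest mean level in H23, and COL17A1 in H1975. COL18A1, a basement membrane collagen whose end fragment is endostatin, had 215 and 171 CPM in H820, against 45.4 and 45.9 in H23, 55.5 and 35.0 in EBC1, and 67.1 and 72.5 in H1975 (log2 1.87 ± 0.13, adjusted p = 8.17e-10). H820 was above every other library. COL28A1 had 30.1 and 23.4 CPM in H820, 0.251 and 0.402 in H23, 7.53 and 5.38 in EBC1, and 6.32 and 4.41 in H1975 (log2 3.54 ± 0.17, adjusted p = 4.67e-12).

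COL9A2, a chain of collagen IX, had 35.8 and 51.3 CPM in H820, against 12.9 and 12.2 in H23, 1.17 and 0.961 in EBC1, and 0.613 and 0.611 in H1975 (log2 4.36 ± 0.16, adjusted p = 1.22e-13). Its partner chains were low there, COL9A3 with 30 and 2 counts and COL9A1 with 4 and 8 (0.186 and 1.35 CPM). COL9A1 was low in every line, at most 1.51 CPM in a library. In H23, COL9A3 stood instead at 3.55 and 4.19 times COL9A2 per kb. COL17A1 was also higher in H820 than in the mean of the rest (log2 3.73 ± 0.13, adjusted p = 6.49e-14), though its H820 and H1975 libraries overlapped.

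COL1A1, a chain of the main fibrillar collagen I, was present in all lines, with 53.1 and 57.2 CPM in H820, 32.8 and 35.3 in H23, 25.1 and 18.3 in EBC1, and 27.96 and 29.6 in H1975 (H820 against the rest, log2 0.98 ± 0.13, adjusted p = 4.01e-06). COL1A2, its usual partner, was not. COL1A2 had 0 and 0 counts in H820 and 3 and 0 in EBC1, against 35 and 35 in H23 and 93 and 84 in H1975.

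**Figure D3:**
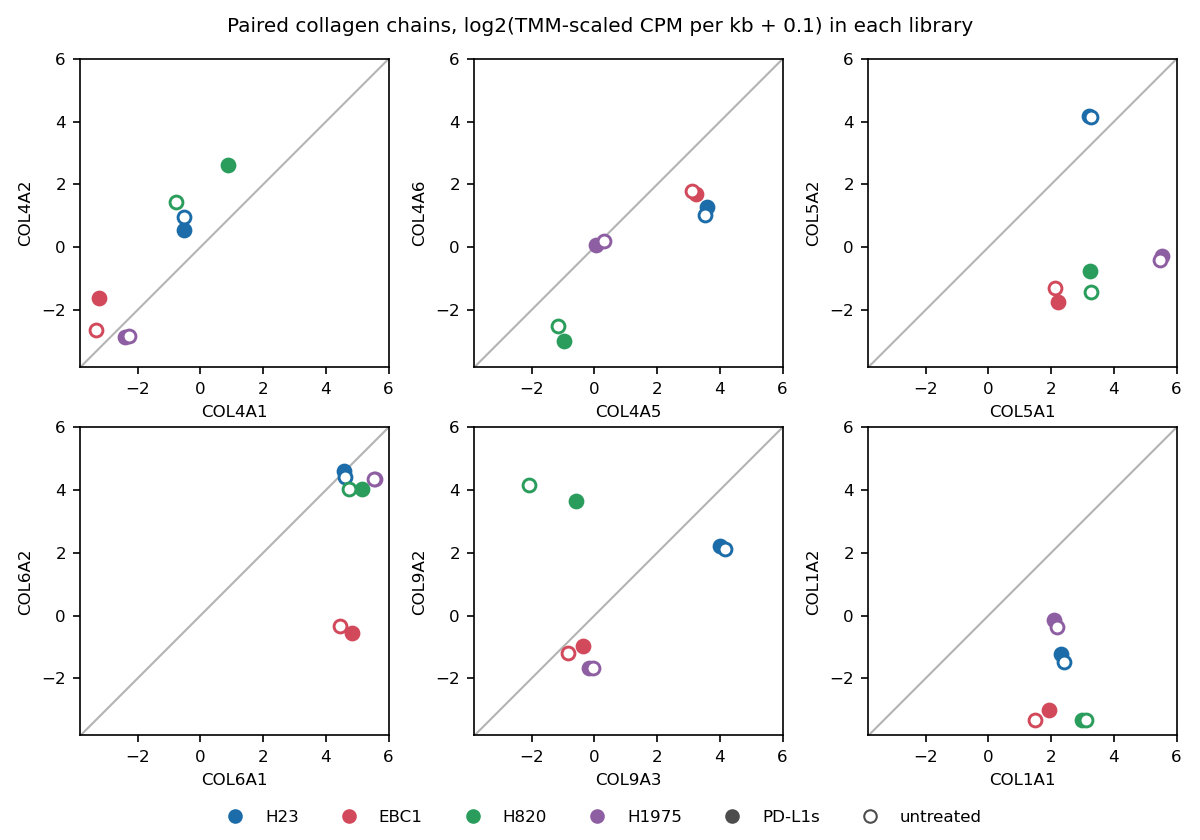
Levels of paired chains in each library as log2(TMM-scaled CPM per kb + 0.1), the first gene on the x axis and the second on the y axis. Colours are lines, filled points PD-L1s and open points untreated, and the grey line marks equal levels. COL6A2 lies low in EBC1, COL9A2 high in H820, and COL5A2 above COL5A1 in H23 alone.

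The type IV genes lie in head-to-head pairs and differed by pair. In RefSeq on GRCh38.p14, 127 bases lie between the starts of COL4A2 and COL4A1, 419 between COL4A3 and COL4A4, and 380 or 1416 between COL4A5 and COL4A6, by the COL4A6 start used. The windows below run from 250 bases before to 50 after a start, 5′ to 3′ on the gene's strand, and are shown because they cover the shared stretch between paired genes whose levels are given next. Capitals mark matches to the GC box (GGGCGG or CCGCCC) and the CCAAT box (CCAAT or ATTGG). The windows are chr13:110307034-110307333 (plus strand) for COL4A2, chrX:108439588-108439887 (plus) for COL4A5 and chrX:108439409-108439708 (minus) for COL4A6.
COL4A2: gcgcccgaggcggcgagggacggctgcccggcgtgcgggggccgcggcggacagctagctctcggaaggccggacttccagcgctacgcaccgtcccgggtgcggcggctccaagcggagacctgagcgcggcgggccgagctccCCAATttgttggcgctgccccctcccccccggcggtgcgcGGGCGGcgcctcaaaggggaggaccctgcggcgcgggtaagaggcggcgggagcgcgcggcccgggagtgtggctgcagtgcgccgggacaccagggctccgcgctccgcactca
COL4A5: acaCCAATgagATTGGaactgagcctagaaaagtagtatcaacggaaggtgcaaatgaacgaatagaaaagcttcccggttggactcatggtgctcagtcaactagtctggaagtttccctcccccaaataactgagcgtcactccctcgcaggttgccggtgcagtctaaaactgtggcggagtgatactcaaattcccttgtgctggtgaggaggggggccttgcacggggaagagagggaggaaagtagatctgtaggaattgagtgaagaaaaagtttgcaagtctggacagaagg
COL4A6: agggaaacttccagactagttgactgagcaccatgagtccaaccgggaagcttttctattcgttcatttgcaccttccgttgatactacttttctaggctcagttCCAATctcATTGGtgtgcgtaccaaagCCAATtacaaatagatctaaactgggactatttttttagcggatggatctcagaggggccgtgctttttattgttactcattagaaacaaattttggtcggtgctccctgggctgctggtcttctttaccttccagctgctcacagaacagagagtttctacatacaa

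A GC box was in 24 of 44 windows of the 32 collagens with a window (54.55%), and in 44.95% of all 35116 windows of this length. For the CCAAT box the shares were 31.82% and 34.61%, for the TATA box (TATAAA or TTTATA) 18.18% and 11.53%, and for the AP-1 site (TGANTCA) 2.273% and 7.709%. A match is a description of these letters only.

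COL4A5 and COL4A6, found with each other in the basement membranes of epithelia, were high in the same pair of lines. COL4A5 had 92.8 and 88.2 CPM in H23 and 72.8 and 66.5 in EBC1, against 7.36 and 8.82 in H1975 and 3.21 and 2.71 in H820. COL4A6 had 16.0 and 13.1 CPM in H23 and 21.7 and 23.1 in EBC1, against 6.55 and 7.25 in H1975 and 0.186 and 0.508 in H820. H820 was lower than the rest for both, by log2 -3.60 ± 0.18 for COL4A5 (adjusted p = 9.71e-12) and -5.62 ± 0.34 for COL4A6 (adjusted p = 1.06e-10). By edgeR, COL4A5 was higher in H23 (log2 2.91 ± 0.12, adjusted p = 2.84e-13) and in EBC1 (log2 2.41 ± 0.12, adjusted p = 1.46e-11). COL4A6 was likewise higher in EBC1 (log2 2.90 ± 0.19, adjusted p = 3.93e-10) and in H23 (log2 2.08 ± 0.19, adjusted p = 3.05e-08). Against the mean of the rest by edgeR, COL4A6 was higher in H1975 (log2 0.65 ± 0.22, adjusted p = 0.0193). COL4A5 was lower there (log2 -1.73 ± 0.15, adjusted p = 1.85e-08). By level, both genes were lower in H1975 than in H23 and EBC1 and higher than in H820.

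COL4A1 and COL4A2, the chains of most basement membranes, were highest in H820. COL4A2 had 37.6 and 16.3 CPM in H820, against 8.60 and 11.6 in H23, 1.43 and 0.384 in EBC1, and 0.236 and 0.262 in H1975 (log2 4.22 ± 0.26, adjusted p = 1.66e-10). COL4A1 had 12.8 and 3.56 CPM in H820, 4.48 and 4.42 in H23, 0.0448 and 0 in EBC1, and 0.660 and 0.786 in H1975. The untreated H820 level of COL4A1 lay below both H23 levels, so those lines overlapped. COL4A3 and COL4A4 stayed under 3 CPM in all libraries.

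PD-L1s against untreated, with each line as its own control, called none of the 39 collagens by edgeR's quasi-likelihood test, where 0.0372% of all genes were called (0.0289% higher, 0.00827% lower). At an unadjusted p under 0.05 there was 1 collagen, COL28A1, where 3.61% of all genes passed, and DESeq2 also called 0. COL28A1 was 0.39 ± 0.17 on the log2 scale (unadjusted p = 0.0371, adjusted p = 1), higher after PD-L1s in 3 of 4 lines. The median log2 difference was 0.02 over the collagens and 0.04 over all genes tested, with 22 of 39 above 0. COL4A1 gave 0.61 ± 0.32 and COL4A2 0.42 ± 0.26, both with an adjusted p of 1, and without H820 the values were -0.04 and -0.20. COL6A1 gave 0.20 ± 0.11 and COL18A1 0.20 ± 0.12, COL5A1 0.01 ± 0.11 and COL17A1 0.08 ± 0.12, again with adjusted p of 1.

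**Figure D4:**
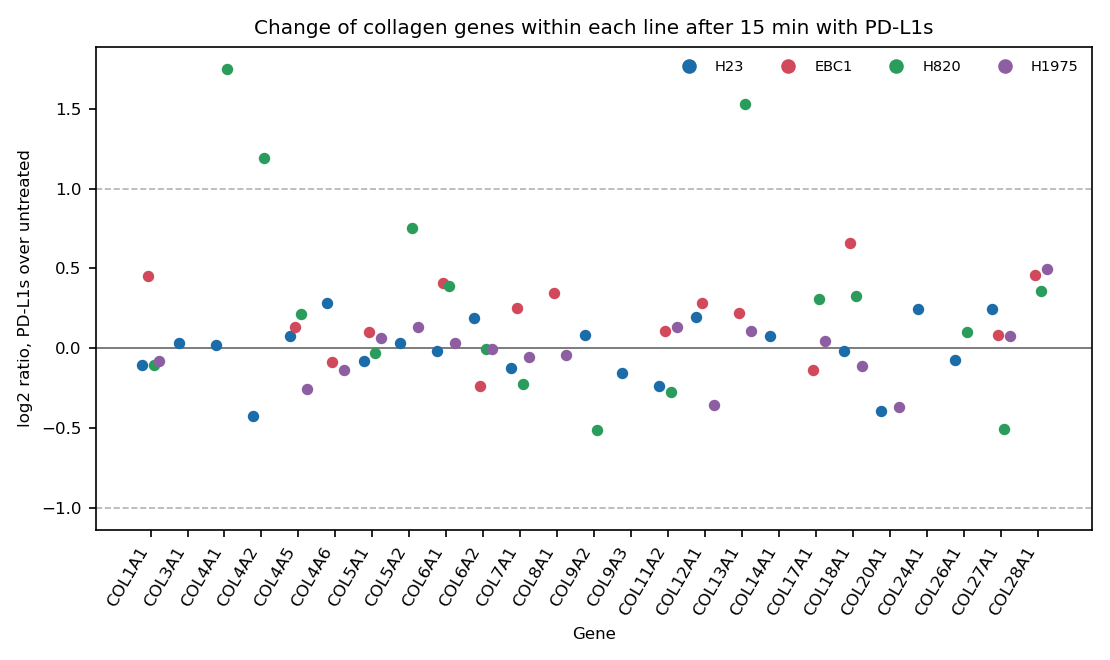
Log2 ratio of PD-L1s over untreated within each line (y axis) for the collagens that reached 10 CPM (x axis), drawn where the gene reached 50 counts in either library of the line. Dashed lines mark a 2-fold change. Points outside them are COL4A1, COL4A2 and COL13A1 in H820.

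Inside a single line, PD-L1s and untreated had 1 library each, so these ratios have no replicate check. Among genes that reached 50 counts in either library, H820 had over 2-fold changes in 3 of 19 collagens higher, where 4.11% of all such genes were, and 1 lower, where 0.853% were. COL4A1 had 276 counts after PD-L1s and 21 untreated in H820 (log2 ratio 1.75), COL4A2 had 810 and 96 (1.19), and COL13A1 had 99 and 8 (1.53). COL22A1 had 63 and 38 counts, lower by its level (log2 ratio -1.05). FBLN1, a fibroblast marker, moved alike in H820, at 54.7 CPM after PD-L1s and 13.9 untreated. Of the other fibroblast markers, PDGFRA had 2.28 and 1.69 CPM in H820, PDGFRB 0.372 and 0, and LUM 0.372 and 0.508. POSTN and THY1 had no count in either H820 library. Some genes that are not fibroblast markers moved like FBLN1, such as TGM2 (249 and 73.8 CPM), ITGA1 (18.8 and 5.59) and SOX9 (40.1 and 13.2). Others did not, such as ITGA2 (60.1 and 59.3 CPM). The untreated library was the shallower. The part of these genes and of depth in these ratios was not tested. Outside H820, COL4A2 in EBC1 (32 and 2 counts, log2 ratio 1.27) and COL2A1 in H23 (4 and 16, -1.03) passed 2-fold below 50 counts. In lines other than H820, no collagen that reached 50 counts in either library passed 2-fold. Of all such genes, 0.155% were higher and 0.0906% lower in H23, 1.21% and 0.107% in EBC1, and 0.14% and 0.0266% in H1975.

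An interaction term compared the PD-L1s response of EBC1, known from 1 pair of libraries, with that of the adenocarcinoma lines. The spread in this test comes only from the adenocarcinoma lines, and EBC1 is assumed to vary like them. None of the 39 collagens was called by edgeR, where 0.0124% of all genes were (0.00827% higher, 0.00413% lower). At an unadjusted p under 0.05 there were 2, where 4.52% of all genes passed. They were COL18A1 (log2 0.60 ± 0.26, unadjusted p = 0.0431, adjusted p = 1) and COL1A1 (0.56 ± 0.24, unadjusted p = 0.039, adjusted p = 1). Without H820, when H23 and H1975 gave all of the spread, COL18A1 gave log2 0.72 and was called by edgeR. How many of all genes were called in that run was not counted.

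Genes that modify, crosslink or bind collagen differed among the lines, as did 86.3% of all genes tested. Of 18 modifying and folding genes all 18 were called among lines, of 17 export, cleavage and crosslinking genes 16, and of 10 tested receptors all 10. None was called for PD-L1s, where 0.0372% of all genes were. PLOD2, a lysyl hydroxylase of collagen chains, had 50.9 and 53.6 CPM in H23, against 2319 and 2302 in EBC1, 926 and 855 in H1975, and 1495.4 and 839.9 in H820. PLOD2 was lowest in H23 (H23 against the rest, log2 -4.66 ± 0.24, adjusted p = 7.14e-12 by edgeR). FKBP10, a collagen chaperone, was highest in H23 at 202 and 202 CPM, with 65.0 and 48.0 in EBC1, 174 and 168 in H1975, and 34.8 and 17.8 in H820.

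LOX, which starts the crosslinking of collagen fibrils, had 742 and 767 CPM in H1975 and 343 and 289 in EBC1, against 2.21 and 2.13 in H23 and 6.60 and 2.37 in H820. LOXL2, a related enzyme, was likewise high in H1975 and EBC1, from 536 to 655 CPM, and 39.1 to 64.9 CPM in H23 and H820. PXDN, which crosslinks type IV collagen, was low in H1975 at 10.1 and 11.7 CPM, against 509 and 481 in H23, 238 and 187 in EBC1, and 293 and 206 in H820. The ITGA2 chain of a collagen-binding integrin had 670 and 662 CPM in EBC1 and 592 and 604 in H1975, against 64.4 and 52.8 in H23 and 60.1 and 59.3 in H820. MRC2, a receptor for collagen uptake, had 198 and 203 CPM in H23 and 71.2 and 78.8 in H1975, against 7.26 and 4.61 in EBC1 and 2.37 and 3.39 in H820.

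**Figure D5:**
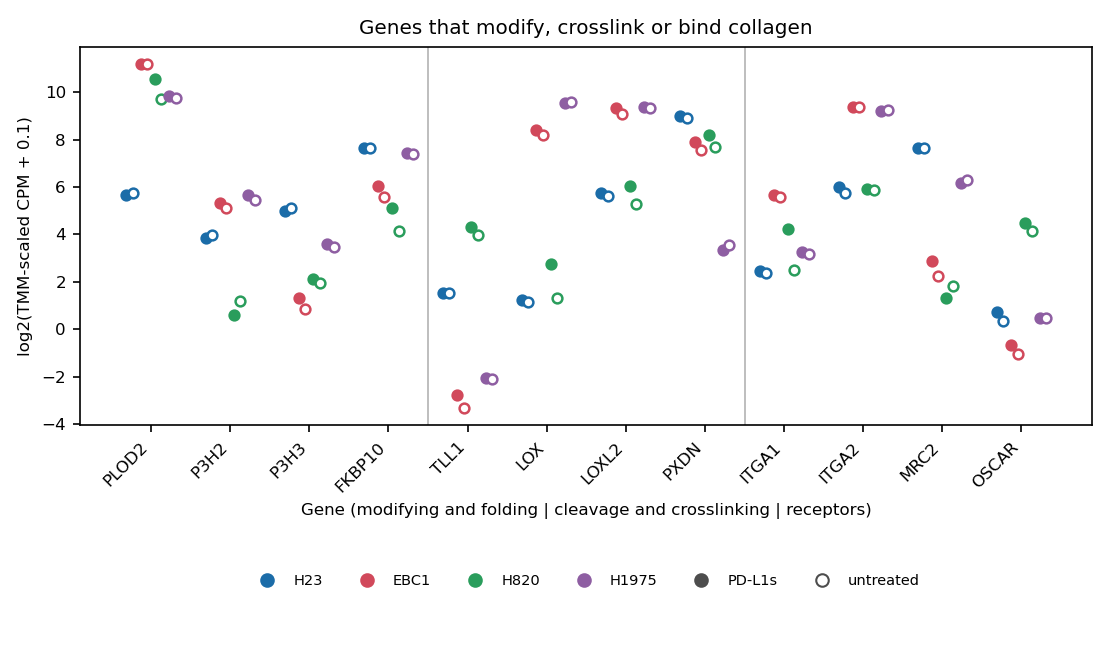
Levels of 12 collagen-related genes (x axis) in each library as log2(TMM-scaled CPM + 0.1), with lines in colour, filled points PD-L1s and open points untreated. LOX, LOXL2 and ITGA2 are high in EBC1 and H1975 and low in H23 and H820.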

How the data were processed

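RNA of pneumospheres of 4 lines was sequenced as stranded total RNA libraries after removal of ribosomal RNA, per the labels' protocols. The authors deposited, for each gene, its count of read pairs without normalization and its summed exon length, made with STAR 2.7.3a and featureCounts of Subread 2.0.0 on GRCh37, per the submitters' processing notes. Per the file headers, the authors counted GENCODE 28 genes lifted to GRCh37, reverse-stranded, with primary alignments of mapping quality 1 or more, and a pair over several genes was counted for each. Counts were tested with edgeR 4.0.16 in R 4.3.3 (quasi-likelihood, TMM scaling, line plus treatment as terms, minimum count 10 by line), which left 24185 genes. P-values were adjusted by the Benjamini-Hochberg method over all of them and called under 0.05. The SE after ± is approximate, the size of the log2 difference divided by the square root of the test's F statistic. Pairing by line comes from the labels, and the 4 lines were the replicates of PD-L1s. Each line had 2 libraries in contrasts of lines. Within-line ratios used a prior count of 5. DESeq2 1.42.0 and limma 3.58.1 (voom) were alternatives, and the fit was tested on simulated data. Values in every library are given for collagens that reached 10 CPM, except COL9A3 and COL24A1, given outside H23 as a range or a maximum. Of related gene lists, up to 4 genes each were picked by the smallest p among lines, and not all of these are named in the text. Other genes were named for their place in a chain pair or after their values were seen. Promoter windows come from RefSeq on GRCh38.p14, matched by symbol. The collagen members, classes and related lists were chosen with earlier results of these data known.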

Additional observations from a re-analysis of the deposited data

Results flagged for a closer look

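Within-line ratios of PD-L1s over untreated were checked in 9 collagens that had enough counts in all 4 lines. COL1A1 in EBC1 stood apart from the other lines, with a log2 ratio of 0.45 against -0.11 in H23, -0.11 in H820 and -0.08 in H1975. The gap took 0.957 of the range of the 4 values, above Dixon's critical value for 4 samples. Chance flags about 1 in 20 such groups. COL1A1 had 560 counts after PD-L1s and 95 untreated in EBC1, whose untreated library was the shallower.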

How the results depend on the processing

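The count of collagens called for PD-L1s was 0 under every alternative run, with no replicate block included (0), and every other count of called collagens except that of the interaction stayed within 1.5 times its value. Leaving out lines gave 0 to 1 collagens called for the interaction, the 1 being COL18A1 without H820. The share of all genes called in those runs was not counted. Collagen fitted differences for PD-L1s, none called, changed sign as follows. COL5A1 gave -0.0135 with median-of-ratios scaling, -0.0636 with library size only, -0.0339 with a minimum count of 50, -0.013 with DESeq2, -0.0301 with protein-coding genes only and -0.0019 with H23 and H1975 only. COL17A1 gave -0.027 with library size only. With H23 and H1975 only, COL4A1 gave -0.0375, COL4A2 -0.41 and COL18A1 -0.0643. Over the lines left out, COL5A1 ran from -0.0427 to 0.0184, COL17A1 from -0.03 to 0.12, COL4A1 from -0.0403 to 1.02 and COL4A2 from -0.20 to 1.06. The cause was not tested. With protein-coding, non-mitochondrial counts as the total, the collagen share was 0.125% after PD-L1s and 0.121% untreated in H23, 0.0505% and 0.0470% in EBC1, 0.153% and 0.153% in H1975, and 0.0966% and 0.104% in H820. Library size only moved the median of all genes to 0.54 in H23 and -0.40 in EBC1. Untreated EBC1 and H820 libraries limit low genes most.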
